A study of Mus musculus with 20 samples.

Results

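The genes of glutathione, thioredoxin and antioxidant enzymes were followed in a mouse hepatoma line whose glutamine supply was repeatedly withdrawn and restored. Members were chosen by gene symbol, from the prefixes of peroxiredoxins (Prdx), glutathione peroxidases (Gpx), glutathione transferases (Gst and Mgst), thioredoxins (Txn) and glutaredoxins (Glrx), with the genes Gclc, Gclm, Gss, Gsr, Sod1 to Sod3, Cat, Nqo1, Nqo2, Hmox1, Hmox2 and Srxn1. The rule found 63 of the 13406 named genes on the array. Of these, 50 had a value on at least 1 of the 20 arrays and 21 could be tested for their mean over time.

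Hepa1-6 cells were grown to confluence and sampled over 96 h, with the medium of every flask exchanged at the start and at 24, 48 and 72 h. Control flasks received DMEM with 25 mM glucose, 4 mM glutamine, 10% CPSR-3 (a serum substitute) and 1% penicillin-streptomycin at each exchange. Glutamine-varied flasks received the same medium, but with 0 mM glutamine at the start and at 48 h and with 4 mM at 24 and 72 h. Each spotted array compared RNA of varied flasks, labelled with Cy5, with RNA of control flasks, labelled with Cy3, at 1 of 11 numbered time points. The labels give neither the hour nor the glutamine level of a numbered time point, so no ratio can be assigned to a glutamine-free or a glutamine-fed medium. They do not say either whether the second array of a time point came from another flask. P-values of differences among time points and of single time points may therefore measure technical spread only. Those of a mean over time rest on the spread among time points. Values are log2 ratios, with the median spot of each array set to 0, and a positive ratio likely means a higher level in varied flasks. Dyes were never exchanged, so that a dye bias of a gene and a constant difference between flasks cannot be told apart. In bulk RNA, fewer cells of a type and less RNA per cell cannot be told apart either.

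Glutathione is a tripeptide of glutamate, cysteine and glycine, and glutamine is a common source of its glutamate. Glutathione peroxidases and peroxiredoxins reduce peroxides with electrons from glutathione and thioredoxin, which their reductases restore at the expense of NADPH. Glutathione transferases join glutathione to reactive compounds, a main detoxification route of the liver, and many of these genes carry antioxidant response elements read by the factor NRF2.

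The antioxidant response element gives a sequence that members can share at their start sites, and it is shown here because several tested members carry its core. The core TGACNNNGC was searched on both strands of the 300 bases from 250 before to 50 after each gene's start in RefSeq promoters of GRCm38.p6. It matched 11 of the 55 members with such a promoter (20%), against 14% of all 27025 genes. Among tested members it matched 4 of 17, namely Prdx1, Sod1, Gstm7 and Txndc5. A match is a description of the letters and no site of binding. The windows are written on the strand that reads the core forwards, here the minus strand of the chromosome in each case, with the core in capitals. They are Prdx1 at chr4:116685446-116685494, Sod1 at chr16:90220686-90220734, Gstm7 at chr3:107931715-107931763 and Txndc5 at chr13:38528024-38528072.
Prdx1: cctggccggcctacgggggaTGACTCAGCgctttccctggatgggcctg
Sod1: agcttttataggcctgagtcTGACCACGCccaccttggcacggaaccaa
Gstm7: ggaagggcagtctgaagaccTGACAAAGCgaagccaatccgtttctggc
Txndc5: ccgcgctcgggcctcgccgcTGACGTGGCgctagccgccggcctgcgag
The base of the core farthest from the start lay 133, 56, 129 and 138 bases before it in this order. The cores of Prdx1 and Sod1 read against the direction of the gene, and those of Gstm7 and Txndc5 read along it. Of these genes, Prdx1 and Sod1 varied among time points (all genes 30.6%), but both calls were lost with all 20 arrays, as given below. The mean of none of the 4 passed its test. A link between the core and these ratios was not tested.

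Arrays gave 4269 to 8269 values for 17280 probes. The second arrays of time points 6 and 10 stood apart from the rest in their ratios. Their correlation over probes was at most 0.0539 and 0.00900 with any of the other 18, and 0.397 with each other. They differed in which probes had a value. By this measure that of time point 10 resembled the other 18 (highest correlation 0.752), while that of time point 6 did not (0.0154). Each of the 18 reached at least 0.665 with another of them. Results are given for the 18 arrays, so that time points 5, 6, 10 and 11 rest on 1 array each. Members are also given with all 20, no spot left out, where the call of a mean or of the variation among time points changed. Marker genes and genes of the pathway lists are given for the 18 centred arrays only. The control RNA of the first array of time point 4 is labelled as from glutamine-free cells, which was taken as a slip. Leaving that time point out ended the calls of the mean of Gstt2 and Txndc15 among those given below. On the arrays of time points 5 and 6 the first spot of every 20 probe numbers was raised, with medians of 2.72 and 1.28, and was left out there. The hepatocyte markers Alb, Apoa1, Hnf4a and Fgb had values on at least 11 arrays. Of these 4, Alb (-0.59 ± 0.21, SD, n = 9 time points) and Fgb (-0.27 ± 0.34, n = 11) were lower (all genes 12.2%). Apoa1 (0.003 ± 0.15, n = 10) and Hnf4a (0.08 ± 0.08, n = 10) did not pass the test. Of markers of other cells, 6 of 7 fibroblast genes, 2 of the 4 endothelial genes on the array and none of the 4 macrophage genes on the array had a value. Col1a2 and Kdr were higher by 0.21 each (all genes 21.2%) and Pdgfrb was lower (-0.29), while Acta2 (-0.003) and Lrat (-0.06) did not pass. The part of these markers in the results below was not tested.

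Over the whole course, Gsta4, Gstk1, Gstt2, Txnip and Prdx2 were higher in varied flasks, and Gpx3, Gstz1 and Txndc15 were lower. The largest mean shifts were 1.52-fold for Gsta4 and 1.43-fold for Gpx3, in opposite directions. That of Gsta4 includes values of time points 5 and 6 at a raised position, and without these 2 time points its mean was 0.32, as was that of Gstk1. The other 6 called members were between 1.14-fold and 1.22-fold. These are 5 higher and 3 lower of 21 tested members (limma on the mean of the time points, Benjamini-Hochberg adjusted p under 0.05), against 21.2% and 12.2% of all 4398 genes. The members' share was thus near that of the array as a whole. The balance depends on the centring, since without it 12 members were higher and 1 lower (2946 and 69 of all genes). Their median mean was -0.02 against 0.03 over all genes tested, and their median SD over time points was 0.213 against 0.221.

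**Figure D1:**
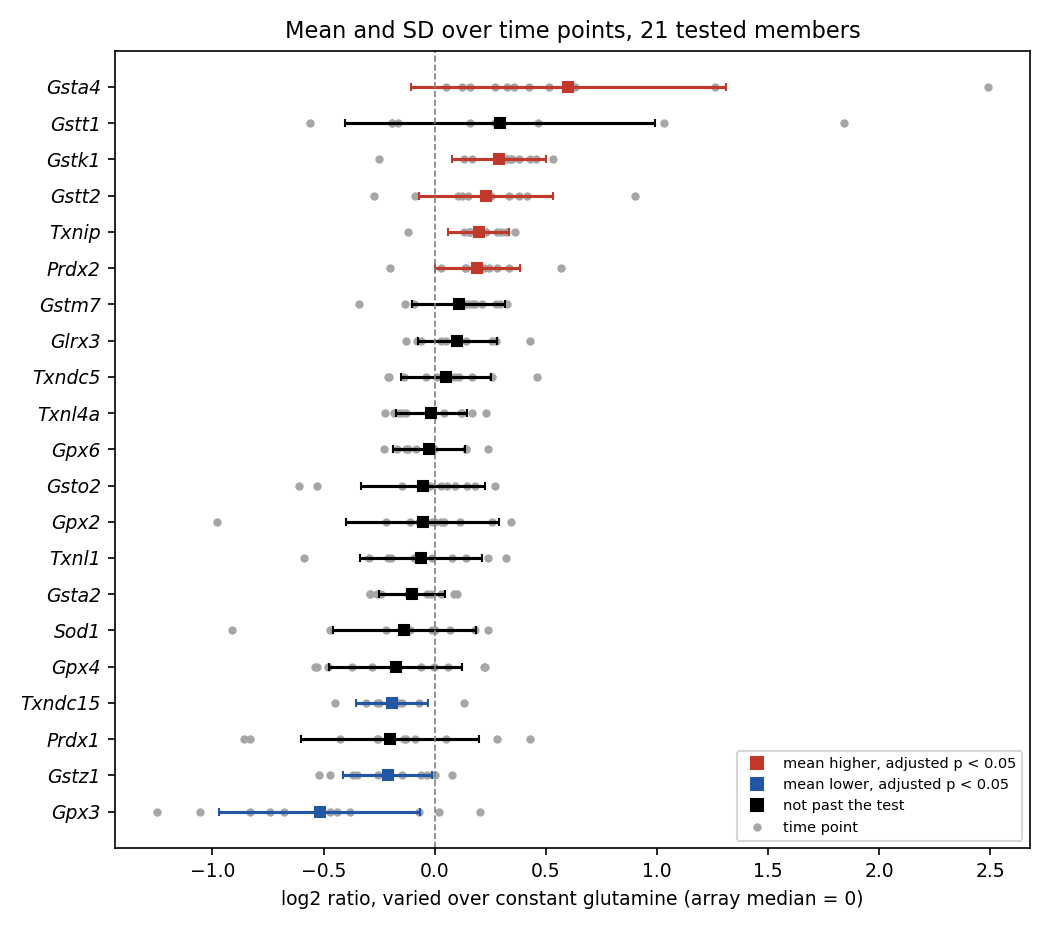
Mean log2 ratio (squares) with its SD (bars) over time points for the 21 tested members, with each time point as a grey point; the horizontal axis is the log2 ratio of varied over constant glutamine. Gsta4 has the highest mean (0.60) and its points at time points 5 and 6 lie apart, while Gpx3 has the lowest (-0.52).

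Among time points, 9 of 19 members varied (limma F-test, adjusted p under 0.05), against 30.6% of 4023 genes. All 20 arrays gave 3 of 19 against 7% for this test, namely Gsta4, Gstt1 and Txn1, the thioredoxin that reduces peroxiredoxins. Their probes hold positions 2, 2 and 1 of every 20 probe numbers, where spots were raised on the arrays of time points 5 and 6. Those spots were kept in this setting. For the mean, all 20 arrays gave 2 higher and 2 lower of 24, against 13.6% and 9.05%. The 9 were Gpx2, Gpx3, Gpx4, Prdx1, Sod1, Gsta4, Gstt1, Gstt2 and Gsto2. Of them, Gpx3, Gsta4 and Gstt2 had also passed the test of the mean. With all 20 arrays the F-test calls of Gpx2, Gsto2, Gstt2 and Sod1 were lost (limma adjusted p of 0.108, 0.254, 0.153 and 0.189). Those of Gpx3 and Prdx1 were lost too, as given below, and Gpx4 could not be tested. With blocks of 540 probe numbers centred in place of whole arrays, the calls of Gpx4, Gsto2 and Sod1 were lost and Txndc5 gained one (limma adjusted p = 0.0360).

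By single time point, members that passed the test against 0 were 1 of 19 at time point 1 (all genes 20.1%), 1 of 19 at 2 (3.81%), 1 of 18 at 3 (11.6%) and 6 of 19 at 4 (24.2%). They were 6 of 18 at time point 5 (20%), 3 of 19 at 6 (14.7%), 5 of 19 at 7 (27.2%), 2 of 19 at 8 (6.54%), 2 of 19 at 9 (9.64%), 5 of 18 at 10 (14.8%) and 0 of 16 at 11 (3.8%). Of these 32 calls, all 20 arrays kept 12, lost 18 and could not test 2. With positions 1 to 4 left out on the arrays of time points 5 and 6, where spots were raised, 3 of 13 passed at 5 (13%) and 1 of 14 at 6 (13.2%). At time point 10, 13 of 19 members lay below 0 with a median of -0.23, when the median over all genes was 0.03. At time point 11, 12 of 18 lay below 0 (median -0.12, all genes 0). Of the 5 calls at time point 10, 4 were lower (Gpx2, Gpx3, Prdx1 and Sod1) and 1 was higher (Gsta4). Both time points rest on 1 array. With the second array of time point 10, Gsta4 moved from 0.63 to 0.19 and Gpx3 from -1.25 to -0.68, and both calls were lost (limma adjusted p of 0.537 and 0.0846). On that second array alone, 8 of 17 tested members were above 0 and 9 below.

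**Figure D2:**
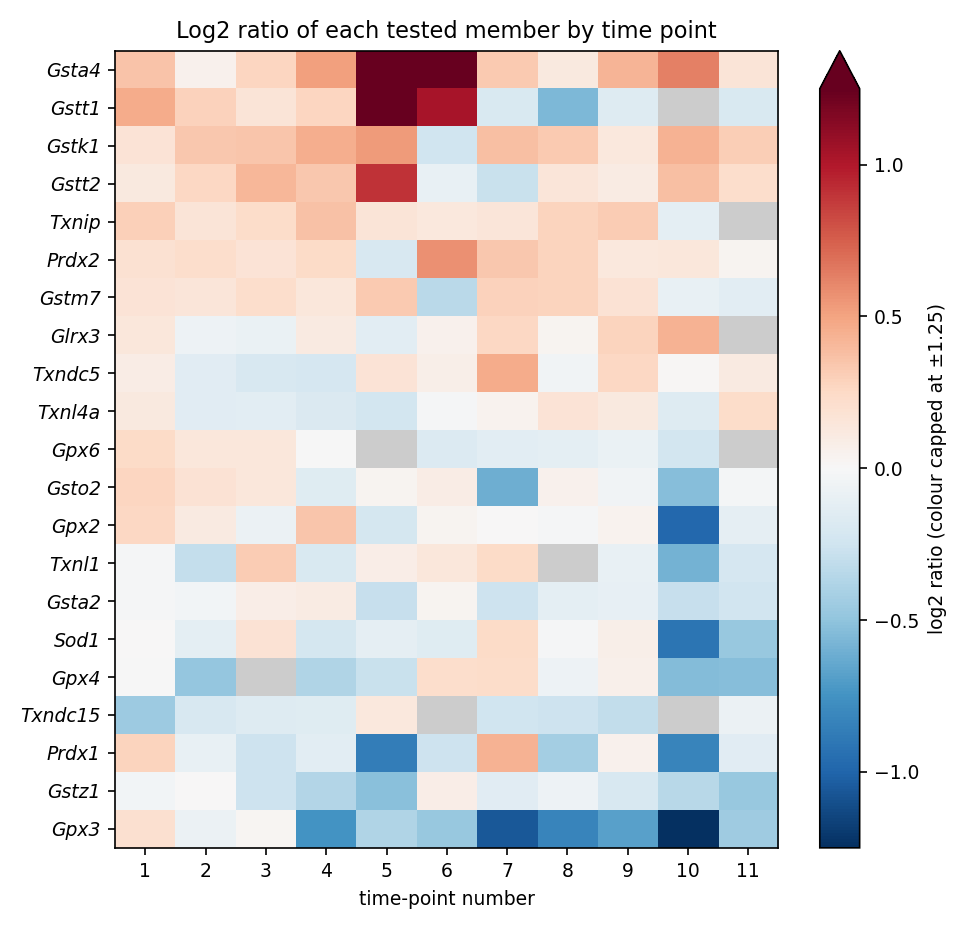
Log2 ratio of the 21 tested members (one line each, ordered by mean) at the 11 numbered time points, as colour from blue (lower in varied flasks) to red (higher), with missing values in grey and the colour capped at 1.25. The column of time point 10 is blue for 13 of its 19 members, and Gsta4 and Gstt1 are darkest red at time points 5 and 6.

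Glutathione peroxidases reduce peroxides at the expense of glutathione. All 4 tested genes had a mean below 0, as had 1978 of the 4398 genes, 1 passing the test (all genes 12.2%), and 3 varied among time points (30.6%). Without centring, the means of Gpx2, Gpx4 and Gpx6 were above 0, at 0.20, 0.06 and 0.26, and without time point 10 those of Gpx2 and Gpx6 were. Gpx3, which encodes the secreted plasma enzyme, was 1.43-fold lower on average (-0.52 ± 0.45, SD, n = 11, limma adjusted p = 0.00341). Its arrays read 0.12 and 0.29 at time point 1, 0.24 and -0.38 at 2, 0.02 at 3, -0.57 and -0.92 at 4, -0.38 at 5 and -0.47 at 6. They read -1.13 and -0.98 at time point 7, -1.03 and -0.63 at 8, -0.64 and -0.72 at 9, -1.25 at 10 and -0.44 at 11. All arrays of time points 4 to 11 were thus below 0, and below both arrays of time point 1. The F-test gave an adjusted p of 8.18e-08 with limma, and time points 4, 7, 8, 9 and 10 each passed against 0, with limma adjusted p between 2.74e-09 and 0.000488. A straight line over the time-point numbers fell by 0.10 per step, but with a limma adjusted p of 0.239 it was not called, nor was that of any other gene (0% of 4398). The mean kept its call without any single array or time point, with all 20 arrays (-0.47, adjusted p = 0.00849 with limma) and under each other setting tried. The second array of time point 10, not among the 18, read -0.10 for Gpx3, and with all 20 arrays the F-test lost its call (limma adjusted p = 0.339). Of the 5 single time points, 7 kept its call with all 20 arrays, while 4, 8, 9 and 10 did not (limma adjusted p of 0.117, 0.284, 0.265 and 0.0846).

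Gpx2, the peroxidase of the gut lining and of many tumour lines, read 0.26, 0.12, -0.07, 0.34, -0.22, 0.03, 0, -0.01, 0.04, -0.98 and -0.11 at time points 1 to 11. It lay between -0.22 and 0.34 but for time point 10, and its mean was -0.05 ± 0.35 (n = 11). The value of -0.98 passed on its own (limma adjusted p = 0.000171), and the second array of that time point, not among the 18, read -0.74. The F-test (limma adjusted p = 0.00264) rested on this array, since without it the adjusted p was 0.491 with limma.

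Gpx4, which reduces lipid peroxides in membranes, had a mean of -0.18 ± 0.30 (n = 10, limma adjusted p = 0.131). From time points 4 to 11 it read -0.37, -0.28, 0.22, 0.23, -0.06, 0.06, -0.54 and -0.53, after near 0 at 1, -0.48 at 2 and no value at 3. The arrays of time point 4 were far apart, at -0.73 and -0.02. Time points 2 and 4 passed against 0, and so did the F-test (limma adjusted p = 0.0121). That call was lost without the second array of time point 2 (limma adjusted p = 0.0584). Gpx6, a relative known from olfactory tissue, had a mean of -0.02 ± 0.16 (n = 9) and passed neither test. Gpx1, the main cytosolic enzyme, had 1 usable value (0.01), and Gpx5 had 5 between -0.45 and 0.36.

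Peroxiredoxins reduce peroxides through a cysteine that thioredoxin restores. The 2 tested members differed, Prdx2 being above 0 at 10 of 11 time points and Prdx1 lying on both sides of 0. Prdx2 read 0.19, 0.22, 0.18, 0.24, -0.20, 0.57, 0.34, 0.28, 0.14, 0.14 and 0.03 at time points 1 to 11. Of the 11 values only that of time point 5 was below 0, and the mean was 0.19 ± 0.19 (n = 11, limma adjusted p = 0.0238), or 1.14-fold. Leaving out time point 8 ended the call (limma adjusted p = 0.0510), and the other 28 leave-outs kept it.

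Prdx1, whose promoter window is printed above, read 0.28, -0.09, -0.26, -0.13, -0.86, -0.26, 0.43, -0.43, 0.05, -0.83 and -0.14. Arrays of 1 time point lay on the same side of 0 except at time point 4, where they were -0.44 and 0.18. The gene was higher at time point 7, with arrays at 0.30 and 0.56, and lower at 5, 8 and 10 (limma adjusted p of 0.0151, 0.000488, 0.0479 and 0.00157). Its F-test passed (limma adjusted p = 1.28e-05) and kept its call without each of the 18 arrays in turn. With all 20 arrays it was 0.0800 with limma, and the calls of time points 7 and 8 were lost (limma adjusted p of 0.122 and 0.348). Time point 8 also lost its call without time points 5 and 6 (limma adjusted p = 0.0520). The mean of -0.20 ± 0.40 (n = 11) did not pass (limma adjusted p = 0.147). Prdx4, the enzyme of the endoplasmic reticulum, was below 0 at 7 of 8 time points with a value (-0.22 ± 0.23), and Srxn1, which repairs overoxidized peroxiredoxins, was above 0 at 3 of 6. Prdx3, of mitochondria, had 1 value (0.48). None of these 3 had enough values for a test.

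Sod1, the cytosolic copper and zinc dismutase that turns superoxide into peroxide, was the 1 measured gene of its group. It read 0, -0.13, 0.18, -0.22, -0.11, -0.15, 0.24, -0.01, 0.07, -0.91 and -0.47 at time points 1 to 11. The last 2 time points were the lowest. The F-test passed (limma adjusted p = 0.00712), but not without the array of time point 10 (limma adjusted p = 0.3002). The mean was -0.14 ± 0.32 (n = 11, limma adjusted p = 0.243). Sod2, Sod3 and Cat, the gene of catalase, had no value.

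**Figure D3:**
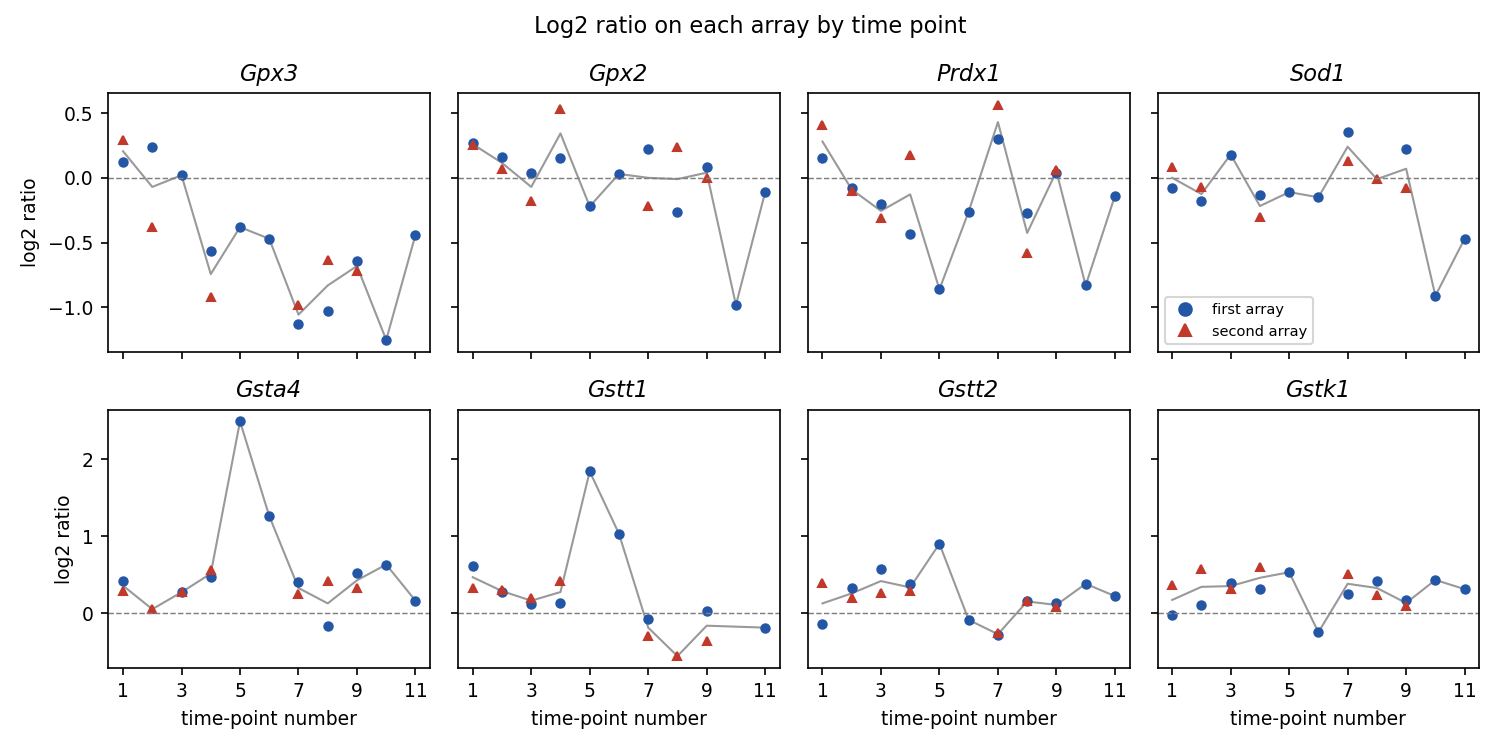
Log2 ratio by time-point number for 4 genes of peroxide and superoxide removal (upper panels) and 4 glutathione transferases (lower panels), with first arrays as circles, second arrays as triangles and the time-point means joined by a line. Gpx3 stays below 0 from time point 4, Gpx2, Prdx1 and Sod1 are low at time point 10, and Gsta4 and Gstt1 peak at time points 5 and 6; the vertical scale differs between upper and lower panels.

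Glutathione transferases were the largest group, with 21 members and 8 tested. Of these 3 were higher (all genes 21.2%), 1 was lower (12.2%) and 4 varied among time points (30.6%), 1 of which, Gsta4, did not once raised positions were left out. Their median mean was 0.17, against 0.03 over all genes tested, and includes values of Gsta4 and Gstt1 at a raised position, as described below. Gstk1, the mitochondrial and peroxisomal kappa enzyme, was 1.22-fold higher (0.29 ± 0.21, n = 11, limma adjusted p = 0.00367). It read 0.17, 0.34, 0.35, 0.46, 0.53, -0.25, 0.38, 0.33, 0.13, 0.43 and 0.31 at time points 1 to 11. Only the array of time point 6 was clearly below 0, and 1 array of time point 1 read -0.03. The call held under every leave-out and every other setting tried, and the F-test did not pass.

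Gsta4, which conjugates 4-hydroxynonenal, a product of lipid peroxidation, was above 0 at all 11 time points. It read 0.36, 0.05, 0.27, 0.51, 2.49, 1.26, 0.33, 0.13, 0.43, 0.63 and 0.16. The mean was 0.60 ± 0.71 (n = 11, limma adjusted p = 0.0157). Gstt1, a theta enzyme that acts on small halogenated compounds, read 0.47, 0.29, 0.16, 0.27, 1.84, 1.03, -0.19, -0.56 and -0.17 at time points 1 to 9, and -0.19 at 11. It was above 0 up to time point 6 and below 0 from 7. Its mean of 0.29 ± 0.70 (n = 10) did not pass (limma adjusted p = 0.218), and was 0.01 without time points 5 and 6 (n = 8). Both genes varied among time points, with limma adjusted p of 9.06e-13 for Gsta4 and 3.94e-12 for Gstt1.

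Both peaks lie at a position whose spots were raised in general on these arrays. The probes of Gsta4 and Gstt1 hold position 2 of every 20 probe numbers, next to the spots left out. On the array of time point 5 the median of position 2 was 1.24, and 16.3% of its 522 spots were at or above Gsta4 and 31.2% at or above Gstt1. At time point 6 the median was 0.33, with 9.71% of 309 spots at or above Gsta4 and 14.2% at or above Gstt1. The other 16 arrays had position 2 medians between -0.07 and 0.05. With positions 1 to 4 left out on both arrays, the mean of Gsta4 was 0.32 ± 0.19 (n = 9, limma adjusted p = 0.00211) and it no longer varied among time points (limma adjusted p = 0.441). Gstt1 still varied (limma adjusted p = 0.00173), between the positive values of time points 1 to 4 and the negative ones from 7. With all 20 arrays the mean of Gsta4 lost its call (limma adjusted p = 0.0528).

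With those positions left out, members called for their mean were 5 higher (all genes 23.4%) and 3 lower (12.8%) of 19, and 7 of 18 varied among time points (25.7%). Gpx4 also sits at position 2, and Gpx3 and Sod1 at position 3, where the medians were 0.46 and 0.13. Gpx3 then had a mean of -0.54 (n = 9) and an F-test adjusted p of 1.33e-08 with limma, and Sod1 kept its F-test call (limma adjusted p = 0.00281). Gpx4 then had too few values for either test.

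**Figure D4:**
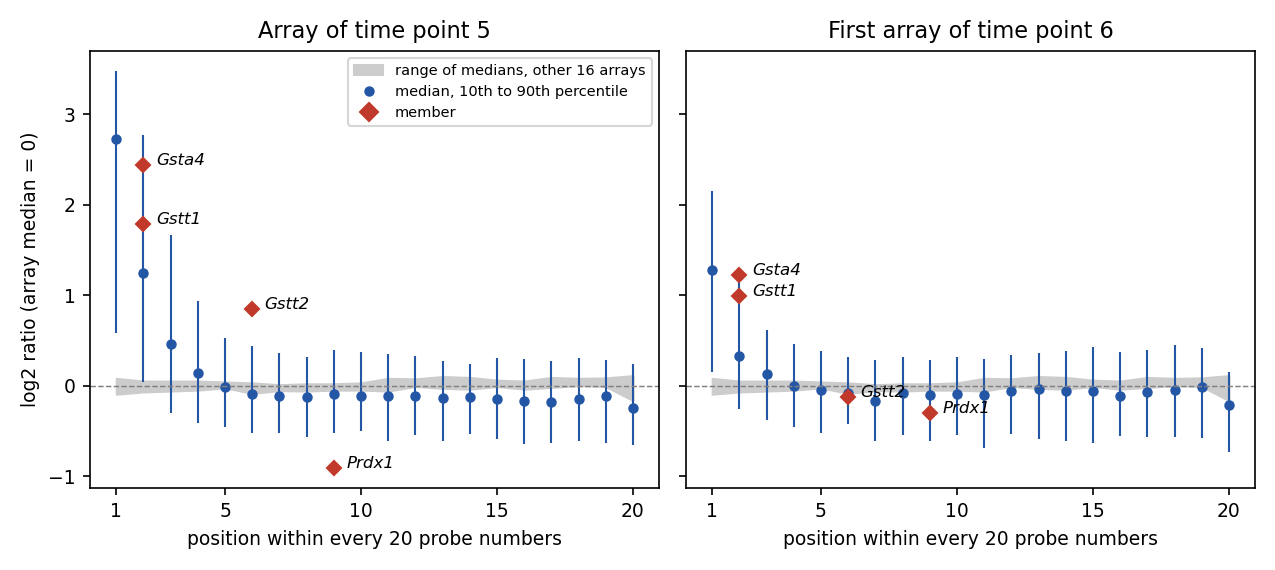
Log2 ratio by position within every 20 probe numbers on the array of time point 5 (left) and the first array of time point 6 (right), as median and 10th to 90th percentile, with the range of medians of the other 16 arrays in grey and 4 member probes as diamonds. Medians fall from 2.72 and 1.28 at position 1 towards 0 by position 5; ratios here are centred on all spots of the array, so that Gsta4 reads 2.44 instead of 2.49.

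Gstt2, a theta enzyme with a probe at position 6, was 1.17-fold higher (0.23 ± 0.30, n = 11, limma adjusted p = 0.0434). It read 0.13, 0.26, 0.42, 0.33, 0.90, -0.09, -0.28, 0.15, 0.11, 0.38 and 0.22. Time point 5 was highest, where only 2.04% of the 393 spots at its position were as high, and both arrays of time point 7 were below 0. The mean lost its call in 15 of 29 leave-outs and under 4 of 13 other settings, all 20 arrays among them (limma adjusted p = 0.0831). Its F-test (limma adjusted p = 0.00710) lost its call without time point 5 (limma adjusted p = 0.126).

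Gstz1, which isomerizes maleylacetoacetate in tyrosine breakdown, was the lower transferase (-0.21 ± 0.20, n = 11, limma adjusted p = 0.0171). It read -0.04, 0, -0.26, -0.37, -0.52, 0.08, -0.15, -0.06, -0.21, -0.35 and -0.47, above 0 only at time point 6. Centring each block of 540 probe numbers in place of the whole array moved this mean to 0.01, so the call depends on how the array was centred, and it was also lost with first arrays only. Gsto2, an omega enzyme that also reduces dehydroascorbate, read 0.27, 0.18, 0.15, -0.15, 0.03, 0.09, -0.61, 0.06, -0.05, -0.53 and -0.02, lowest at time points 7 and 10. It varied among time points (limma adjusted p = 0.00556), but not without the first array of time point 7 (limma adjusted p = 0.0664), and its mean was -0.05 ± 0.28.

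Gstm7, with the core of the response element in its promoter, had a mean of 0.11 ± 0.21 (n = 11), but its 2 probes disagreed, at -0.04 and 0.25. Gsta2 had a mean of -0.10 ± 0.15 (n = 11), and neither gene passed a test on the 18 centred arrays. The Gstm7 mean did pass for the probe with the most values (limma adjusted p = 0.0161), with each array as a sample in a replicate block (0.16, limma adjusted p = 0.0143) and without centring (0.36). Among transferases with fewer values, Gsto1 was below 0 at 7 of 8 time points (-0.37 ± 0.26). Its probe is at position 1, so it had too few values on the 18 arrays. Without time points 5 and 6 its mean passed (limma adjusted p = 0.00337), and with all 20 arrays, position 1 spots included, it was 0.07 and did not (limma adjusted p = 0.865). Gstm3 was below 0 at each of its 4 time points, from -1.37 to -0.07, and Mgst3 at 4 of 6. Gstm1 had values at 3 time points, Gstm2 and Gstm5 at 2, and Gsta3 and Gstp3 at 1, and all but 1 of these 9 values were below 0.

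Thioredoxins and the proteins named after their fold gave 5 tested members of 13. Txnip, which binds thioredoxin and limits its activity and glucose uptake, was higher (0.20 ± 0.14, n = 10, limma adjusted p = 0.0137). It read 0.30, 0.16, 0.23, 0.36, 0.16, 0.13, 0.16, 0.28, 0.32 and -0.12 at time points 1 to 10. It was above 0 at 9 of 10 time points and kept its call under every leave-out. With all 20 arrays the call was lost (limma adjusted p = 0.0588), as it was with blocks of 540 probe numbers centred, where the mean was 0.09. Txndc15, a membrane protein with a thioredoxin fold, was lower (-0.19 ± 0.16, n = 9, limma adjusted p = 0.0319). It read -0.45, -0.20, -0.16, -0.15, 0.13, -0.25, -0.26, -0.31 and -0.07 at time points 1 to 5, 7 to 9 and 11. Only time point 5 was above 0, yet the call was lost in 8 of 25 leave-outs and with all 20 arrays (limma adjusted p = 0.185). Without centring the mean turned to 0.07 (limma adjusted p = 0.372).

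Txndc5, a disulfide isomerase of the endoplasmic reticulum, had a mean of 0.05 ± 0.20 (n = 11) and read 0.09, -0.14, -0.21, -0.21, 0.17, 0.07, 0.46, -0.04, 0.26, 0.01 and 0.11. It passed at time point 7 (limma adjusted p = 0.00843), with arrays at 0.56 and 0.36. Txnl1 (-0.06 ± 0.27, n = 10) and Txnl4a (-0.02 ± 0.16, n = 11), a spliceosome protein that shares the fold, passed no test on the 18 centred arrays. Txnl4a passed without centring (0.23) and with blocks of 540 probe numbers centred (0.13, limma adjusted p = 0.0380). Txn1 was below 0 at 5 of 8 time points (-0.10 ± 0.22), with a probe at position 1 that was left out at time points 5 and 6. The call it had with all 20 arrays (F-test, limma adjusted p = 0.0356) thus includes its position 1 spots of time points 5 and 6. Txnrd2, the mitochondrial thioredoxin reductase, was below 0 at 6 of 8 time points (-0.13 ± 0.37), and Txnrd1, the cytosolic one, had 1 value. Txndc17 was above 0 at 5 of 8, and Txndc8 and Txndc12 had values at 2 time points each. Of the glutaredoxins, which use glutathione to reduce protein disulfides, Glrx3 was tested (0.10 ± 0.18, n = 10) and did not pass.

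Genes that make and restore glutathione had too few values for a test on the 18 arrays. Gclc, the catalytic subunit of the enzyme that joins glutamate to cysteine, had values on 5 arrays and a mean of 0.05 ± 0.23 over 4 time points. Its probe is at position 3 and its highest value, 0.35, is that of time point 5, without which the mean of the other 3 was -0.05. Its modifier subunit Gclm had 2, both at 1 time point (mean -0.26). Gsr, the glutathione reductase, was below 0 at 6 of 7 time points (-0.21 ± 0.26). With all 20 arrays it had 9 time points, and its mean of -0.10 did not pass (limma adjusted p = 0.526). Of quinone reductases and haem oxygenases, Nqo1 had a mean of -0.02 ± 0.14 over 6 time points and Hmox1, which degrades haem and is a stress-responsive NRF2 target, was below 0 at each of 4 (-0.36 ± 0.26). Neither had enough values for a test. Glrx, Glrx2, Gpx7, Gpx8, Gss, Gstm4, Gstp1, Gstt3, Mgst1 and Txn2 had no value on any array, as had Cat, Sod2 and Sod3. Glrx5, Gstt4, Hmox2, Nqo2 and Txndc11 had one only on the second array of time point 6, which was left out. Whether the transcripts were weak or the spots failed was not tested.

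Genes around these enzymes were taken from 4 pathway lists. Their values are from centred arrays only, and their signs and calls without centring were not tested. Over all genes, leaving out the centring moved the median mean from 0.03 to 0.28 and the number called lower from 536 to 69. The lower calls of these lists may thus depend on the centring. Of 6 tested regulators and other targets of NRF2, 3 were lower (all genes 12.2%) and none higher (21.2%), and none of 5 varied among time points (30.6%). The lower genes were Ugdh, which makes UDP-glucuronate (-0.33 ± 0.34), Ephx1, the microsomal epoxide hydrolase (-0.25 ± 0.17), and Akr1a1, an aldehyde reductase (-0.22 ± 0.20). Nfe2l2, the gene of NRF2 itself, had a mean of 0.03 ± 0.21 (n = 10). The median mean of the 6 was -0.18, against 0.03 over all genes tested.

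Of 6 tested genes of cysteine supply and glutathione turnover, 1 was higher (all genes 21.2%) and 2 were lower (12.2%). Chac2, which breaks down glutathione in the cytosol, was lower (-0.37 ± 0.38, n = 11) and varied among time points (limma F-test adjusted p = 8.19e-05), as low as -1.09 at time point 11. Anpep, a surface peptidase that cuts cysteinylglycine, was below 0 at all 10 time points (-0.38 ± 0.15). Adh5, which breaks down S-nitrosoglutathione, was higher (0.31 ± 0.38) and varied, with a peak of 1.34 at time point 5. Its probe is at position 2, like those of Gsta4 and Gstt1, where the median of all spots at time point 5 was 1.24. Its calls without the raised spots were not examined. Slc3a2, a subunit of the cystine transporter, had a mean of 0.08 ± 0.22.

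Of 5 tested genes of NADPH supply, 1 was higher (all genes 21.2%) and 1 lower (12.2%). Rpia of the pentose phosphate route was higher (0.22 ± 0.12) and Pgls of the same route lower (-0.18 ± 0.17). Taldo1 and Idh2 varied among time points (all genes 30.6%), and Idh2, the mitochondrial isocitrate dehydrogenase, peaked at 1.89 at time point 5 with a probe at position 2. The Idh2 call without the raised spots was not examined either. Of 6 tested genes of selenoproteins and methionine repair, Selenom, a thioredoxin-like protein of the endoplasmic reticulum, was lower and below 0 at all 9 time points (-0.41 ± 0.19). Sephs2, which makes the selenium donor, Selenok and Msrb1 varied among time points, 3 of the 5 in that test (all genes 30.6%).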

How the data were processed

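Values of 20 spotted arrays, read as log2 ratios, were used as deposited; on these arrays, per the labels, varied flasks carried Cy5 and control flasks Cy3. Base, direction, normalization and the rule for blank spots are not given in the sources used here, so base 2 and the direction of experimental over control are assumptions. The number of arrays limits the precision. Members and lists were chosen with earlier results of these data known. The 63 members had 69 probes, and all of these matched RefSeq by gene ID. Each array was centred on its median and probes of 1 symbol were averaged. The second arrays of time points 6 and 10 were left out, as were position 1 spots at time points 5 and 6. In R 4.3.3 with limma 3.58.1, time-point means were tested against 0 (a value at 9 or more of 11 time points). An F-test among time points and tests of single time points used the 18 arrays (a value on 14 or more), with the spread taken from 7 time points with 2 arrays. A slope and a period of 5 steps were also tested. Adjustment was by Benjamini-Hochberg over all genes tested, with a threshold of 0.05. The test of the mean treats time points as independent. On simulated data of 3947 genes, the test of the mean recovered 48% of shifts of 0.3 and 95% of shifts of 0.6, and the F-test recovered 89% of shifts of 1. False calls were 7.74% of calls of the mean, above the nominal 5%, and 5.15% of calls of the F-test. The shift for the F-test was placed at a time point with 2 arrays, and the simulated noise held no raised positions. These rates thus do not cover calls that rest on a time point with 1 array or on raised spots. Values at every time point are given for members called in any test. Alternatives were all 20 arrays, no centring, other filters and probe rules, first arrays only and leave-outs. Leaving out positions 1 to 4, leaving out time points 5 and 6 together and centring blocks of 540 probe numbers were added after seeing the data.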

Additional observations from a re-analysis of the deposited data

Results flagged for a closer look

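The difference among time points itself passed its test (limma F-test, 18 arrays) for 9 of 19 members, against 30.6% of all genes. The adjusted p of limma was 9.06e-13 for Gsta4, 3.94e-12 for Gstt1, 8.18e-08 for Gpx3, 1.28e-05 for Prdx1, 0.00264 for Gpx2, 0.00556 for Gsto2, 0.00710 for Gstt2, 0.00712 for Sod1 and 0.0121 for Gpx4. With positions 1 to 4 left out on the arrays of time points 5 and 6, that of Gsta4 was 0.441 and that of Gstt1 0.00173. Gpx4 then could not be tested. Spots outside these comparisons also carried a signal. Position 1 spots had a median of 2.72 on the array of time point 5 and 1.28 on the first of time point 6, and 9 member probes lie there. The remaining 16 arrays had position 1 medians of -0.10 to 0.08. The left-out second arrays of time points 6 and 10 correlated with each other over shared probes (r = 0.397). What raised these spots and what these arrays share was not tested.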

How the results depend on the processing

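Few arrays, 4 time points with 1 array each and unknown normalization before deposit limit all values, and the number of arrays sets what can be called. The means of Gpx3, Gstk1 and Prdx2 kept their sign and call under the 13 other settings tried, and Prdx2 lost its call in 1 of 29 leave-outs. With all 20 arrays, 4 members passed the test of the mean, 262 genes and 3 members the F-test, and single time points gave 13 member calls in place of 32. Without centring, the median gene mean rose from 0.03 to 0.28 and 3015 genes passed (2946 higher, 69 lower), with 13 members (12 higher, 1 lower). Signs then turned for Gpx2 (0.196), Gpx4 (0.062), Gpx6 (0.257), Gsta2 (0.147), Gsto2 (0.198), Gstz1 (0.0395), Prdx1 (0.0486), Sod1 (0.111), Txndc15 (0.0733), Txnl1 (0.167) and Txnl4a (0.234). A value on every array left 670 genes and 4 members past the F-test, with fewer genes tested. First arrays only gave 5 members for the mean, and the probe with most values gave Txnl4a 0.0143. Same-numbered arrays of different time points were not paired in the main tests. Their deviations correlated between -0.416 and 0.316 (median -0.0498, 21 pairs), and whether such arrays share a source was not tested. With each array as a sample in a replicate block, Gpx2 read 0.0213 and Gpx6 0.000754. Without time points 5 and 6, 818 genes passed the F-test and Txnl4a read 0.00722. Blocks of 540 gave Gsta2 0.106, Gstz1 0.0118, Txndc5 -0.0734 and Txnl4a 0.131. Leave-outs gave 5 (without time point 8) to 9 members for the mean, and ranges of -0.0945 to 0.0378 for Gpx2, -0.0572 to 0.00156 for Gpx6, -0.0853 to 0.00275 for Gsto2 and -0.04 to 0.0055 for Txnl4a. The cause of these changes was not tested. No gene was called for the period of 5 steps (0% of 4398, limma), where 261 genes and 2 members had an unadjusted p under 0.05, nor for the slope (503 genes, 3 members).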
